A study of Homo sapiens with 10 samples.

Results

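The genes described here encode the proteins of the cytosolic ribosome. Members were the gene symbols made of RPL or RPS and a number, with an ending A, X, Y, L or L1 allowed, together with RPLP0, RPLP1, RPLP2, RPSA and FAU, and without pseudogenes and the RPS6K kinases. The rule gave 87 of the 28265 genes listed, 52 of the large subunit and 35 of the small subunit, and used no measured value. The data are bulk RNA-seq counts from human thyroid organoids grown from ESIBIe003-A-6, an embryonic stem cell line made from HES3 with GFP at 1 *NKX2-1* allele and a lentiviral *NKX2-1* and *PAX8* construct that doxycycline switches on. NKX2-1GFP+ cells were sorted at days 16, 23, 31, 38 and 45, with 2 libraries per day and 10 in all, each from pooled wells of this single, selected line. All cells had gone through Activin A and a doxycycline pulse. The labels name cAMP for days 16, 23 and 31, TSH with dexamethasone for day 38, and TSH with SB431542, a TGFβ receptor kinase inhibitor, for day 45. The study's methods place day 16 at the end of basal medium, change cAMP for TSH and dexamethasone just before day 31, and keep dexamethasone at day 45. Day and medium changed together, so the effects of time and of medium cannot be told apart.

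The ribosome reads mRNA and joins amino acids. Its small subunit holds the decoding site and its large subunit the peptidyl transferase centre, and each subunit carries a fixed set of proteins, most of them present as a single copy. The mRNAs of these proteins typically begin with a cytosine and a run of pyrimidines, the 5′ terminal oligopyrimidine (TOP) tract, through which mTOR signalling controls their translation. In the thyroid, TSH acts through cAMP on the growth and hormone synthesis of follicular cells.

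The start of the transcript is what these genes share by sequence, so a few start windows are shown here before the levels. Each window runs from 10 bases before to 19 bases after the start base of the RefSeq gene model on GRCh38.p14, 5′ to 3′ on the strand of the gene. Capitals mark a C at the start base and the unbroken run of C and T that follows it, where the run is at least 5 bases long. The first 7 genes were chosen among those described below to show tracts of 7 to 19 bases, and the last 3 have no such tract.
RPL39 (chrX:119791611-119791640, minus strand): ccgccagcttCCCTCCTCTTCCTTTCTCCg
RPLP2 (chr11:809957-809986, plus strand): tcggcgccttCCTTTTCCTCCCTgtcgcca
RPL10 (chrX:154398367-154398396, plus strand): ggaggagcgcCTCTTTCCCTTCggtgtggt
RPS14 (chr5:150449720-150449749, minus strand): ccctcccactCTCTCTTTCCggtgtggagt
RPS6 (chr9:19380217-19380246, minus strand): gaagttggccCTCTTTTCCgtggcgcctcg
RPS27 (chr1:153990752-153990781, plus strand): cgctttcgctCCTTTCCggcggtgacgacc
RPL38 (chr17:74203668-74203697, plus strand): aagtctcgttCTTTTTCgtccttttccccg
RPL27 (chr17:42998409-42998438, plus strand): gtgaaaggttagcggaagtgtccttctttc
RPL9 (chr4:39458903-39458932, minus strand): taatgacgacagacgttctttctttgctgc
RPS27L (chr15:63157458-63157487, minus strand): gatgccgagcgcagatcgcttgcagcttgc

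A start tract was found in 48 of the 68 members with a RefSeq window (70.6%). The same search gave 5.14% of all 27305 genes with a window, 6.41% of the tested genes with a window and 8.70% of the mitochondrial ribosomal protein genes. The tract was 19 bases long in *RPL39*, 13 in *RPLP2*, 10 in *RPS14*, 9 in *RPS6* and 7 in *RPS27* and *RPL38*. *RPS27L*, a diverged copy of *RPS27*, had none, while *RPL22L1* had a tract of 6 bases. The letters CCGGAAG, searched on both strands in the 250 bases before the start, were present in 33.8% of the member windows, in 14.7% of those of the tested genes and in 10.2% of all windows. The share was 36.2% in the windows of mitochondrial ribosomal protein genes and 37.2% in those of ribosome biogenesis factors. A missing tract says only that the letters do not begin at this annotated start base.

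Counts per library totalled 7550260 and 8186969 on day 16, 8610133 and 8318446 on day 23, 9122044 and 8065086 on day 31, 10333933 and 9121301 on day 38, and 7247268 and 9592839 on day 45. Levels are given as CPM, counts scaled to a common library size after edgeR's TMM scaling, and changes on a log2 scale, from the quasi-likelihood test of edgeR, adjusted by Benjamini and Hochberg's method over the 21014 genes that reached 5 counts in 2 or more libraries. A gene is said to have risen or fallen where the adjusted p was below 0.05. Of the 87 members, 83 were tested. *RPL10L* and *RPL3L*, copies known mainly from testis and from striated muscle, missed the minimum. *RPL10L* had 0 counts in all 10 libraries, which allows at most 0.290 to 0.414 CPM. *RPL3L* had 2 counts in 1 library of day 16, 3 counts in 1 library of day 38 and 0 in the others. The other 2 members that were not tested are Y-linked and their levels are not given. Markers of the labelled cells were present: *PAX8* stood between 477 and 728 CPM and *NKX2-1* between 58.1 and 157 CPM in all 10 libraries. *TG*, the precursor of thyroid hormone, rose from 10.7 and 11.7 CPM on day 16 to 7964 and 7525 CPM on day 45. Not all thyroid genes rose: of the 15 tested, 10 were higher and 4 lower at day 45 than at day 16. These are 66.7% and 26.7%, against 12.9% and 11.7% of all genes. From day 38 to 45, 2 were higher and 4 lower (13.3% and 26.7%, against 4.85% and 6.35%). *NKX2-1* and *PAX8* reads can come from the gene or the transgene.

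The members together dipped at days 23 and 31 and were back at day 38. Their share of all counts was 2.11% (95% exact binomial interval 2.10 to 2.12, counting error only) and 2.52% (2.51 to 2.53) in the libraries of day 16. It was 1.80% (1.79 to 1.81) and 1.76% (1.75 to 1.77) on day 23, and 1.87% (1.86 to 1.87) and 1.90% (1.89 to 1.91) on day 31. It was then 2.57% (2.56 to 2.58) and 2.28% (2.27 to 2.29) on day 38, and 2.30% (2.29 to 2.31) and 2.37% (2.37 to 2.38) on day 45. The 4 libraries of days 23 and 31 lay below the other 6, and the days 16 and 38 had the widest gap between replicates. Both subunits followed the same course, the large subunit at 1.14 to 1.67% of the counts and the small subunit at 0.623 to 0.922%. A share of counts also depends on the other RNAs counted. In sorted bulk cells it can further be lowered by fewer cells of a kind or by less of these RNAs per cell. These sources cannot be told apart here. *RN7SK*, the 7SK small nuclear RNA, moved along. It took 6.82 and 7.11% of the counts at day 16, 4.40 and 4.42% on day 23, 2.92 and 3.86% on day 31, 8.17 and 6.76% on day 38, and 7.04 and 5.14% on day 45. With *RN7SK* left out of the library totals, the mean share of the members was still 2.49% on day 16 and 2.62% on day 38, against 1.86% on day 23 and 1.95% on day 31.

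**Figure D1:**
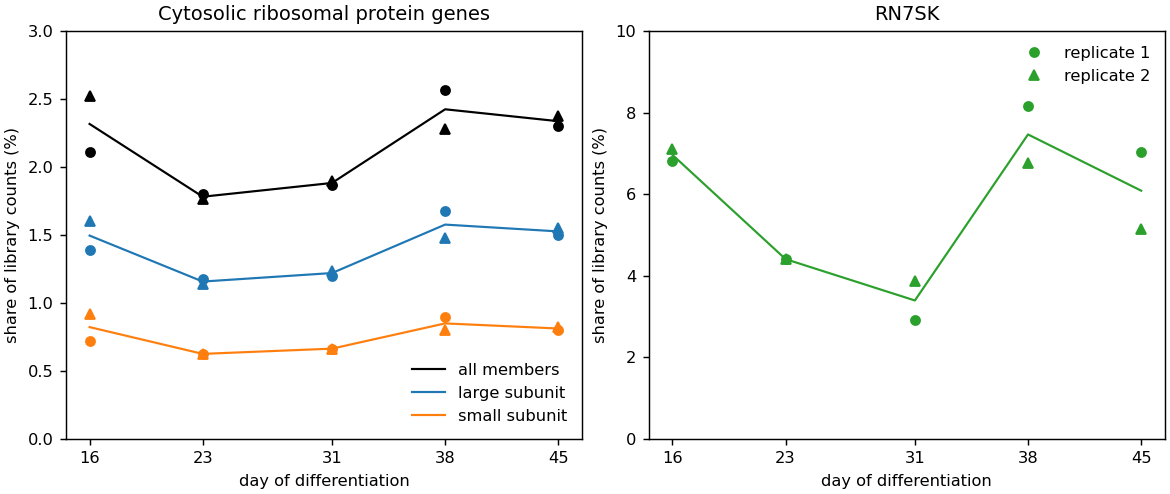
Share of library counts (%, y axis from 0) by day of differentiation (x axis) for the ribosomal protein genes and each subunit (left) and for RN7SK (right). Circles are replicate 1, triangles replicate 2 and lines the mean of 2 libraries; the members' share lay between 1.76 and 1.90% at days 23 and 31 and between 2.11 and 2.57% on the other days.

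From day 16 to day 23, the step from basal medium to cAMP by the study's methods, ribosomal protein genes fell and none of them rose. edgeR called 41 of 83 lower and 0 higher, where 5.33% of all tested genes were called lower and 5.60% higher. DESeq2 called 43 lower, and at an unadjusted p below 0.05 edgeR had 55 lower and 1 higher. The median log2 fold change of the members was −0.47, that of all genes −0.02, and 76 of the 83 members had a negative value. Both subunits took part, with 24 of 50 tested large subunit genes and 17 of 33 small subunit genes lower. The size of the dip rested in part on 1 library of day 16: without replicate 2 of that day the count was 16 and the median −0.28, and without replicate 1 it was 51 with a median of −0.59. Leaving out replicate 1 or 2 of day 23 gave 20 and 13 genes.

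*RPL9*, a large subunit protein gene at chromosome 4, 39452587 to 39458931 on the minus strand (GRCh38, GENCODE 44), stood at 137 and 175 CPM on day 16 and at 78.9 and 88.4 CPM on day 23. This was the largest fall among the called members, by 0.90 log2 units (edgeR adjusted p = 0.000154, standard error 0.16), and the libraries of the days did not overlap. *RPL27*, also of the large subunit, at chromosome 17, 42998273 to 43002959, went from 124 and 184 CPM to 86.0 and 84.8 CPM. It changed by −0.85 log2 units (edgeR adjusted p = 0.000403, standard error 0.16). *RPLP2*, a stalk protein gene at chromosome 11, 809965 to 812880, went from 171 and 204 CPM to 117 and 103 CPM. Its change was −0.77 log2 units (edgeR adjusted p = 0.000308, standard error 0.15). In all 3 genes both libraries of day 23 lay below both of day 16, as they did in 62 of the 83 members and in 25.6% of all genes.

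From day 23 to day 31 no ribosomal protein gene was called in either direction by edgeR or DESeq2, where edgeR called 1.58% of all genes higher and 0.666% lower, 2.25% in all. At an unadjusted p below 0.05, edgeR had 5 members higher and 1 lower, and the smallest adjusted p was 0.134. The median log2 fold change was 0.04 and the quartiles lay at −0.02 and 0.15. In 20 members both libraries of day 31 lay above both of day 23 (20.4% of all genes) and in 8 below (18.9%). *RPS14* stood lower at day 31 without being called: its 146 and 156 CPM on day 23 and 118 and 110 CPM on day 31 did not overlap, with −0.40 log2 units (edgeR adjusted p = 0.20, standard error 0.15).

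From day 31 to day 38, labelled as the step from cAMP to TSH with dexamethasone, 56 of 83 members rose and 0 fell, where 8.80% of all tested genes were called higher and 6.23% lower. The median log2 fold change was 0.56 for the members and 0.00 for all genes, and 78 of the 83 had a positive value. In 66 members both libraries of day 38 lay above both of day 31, which held for 30.2% of all genes, and in 4 below, which held for 26.9%. By subunit, 35 of 50 large subunit and 21 of 33 small subunit genes rose. With library size alone as the scale, the median of all genes was −0.20 and that of the members 0.34, so the distance between them was 0.54, close to the 0.56 with TMM, while 36 members were called higher and 1 lower. The count was 30 without replicate 1 of day 38 and 58 without replicate 2. Of the 41 genes that fell from day 16 to 23, 35 rose here (85.4% of the 41 and 62.5% of the 56). Among the other tested genes, 403 of the 1079 that fell at the first step rose here (37.4%, and 22.5% of the 1794 that rose), and the difference between these shares was not tested. The comparisons share no library.

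*RPL27* had the largest rise among the called members, from 94.5 and 89.9 CPM on day 31 to 245 and 192 CPM on day 38, a change of 1.24 log2 units (edgeR adjusted p = 5.34e-07, standard error 0.16). *RPS14*, at chromosome 5, 150442635 to 150449739 on the minus strand, encodes a small subunit protein whose loss is known from the 5q− syndrome. It went from 118 and 110 CPM to 273 and 246 CPM. This was a change of 1.18 log2 units (edgeR adjusted p = 2.17e-07, standard error 0.15). In both genes the higher library of day 38 was replicate 1, which also had the highest share of ribosomal protein counts of all 10 libraries.

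**Figure D2:**
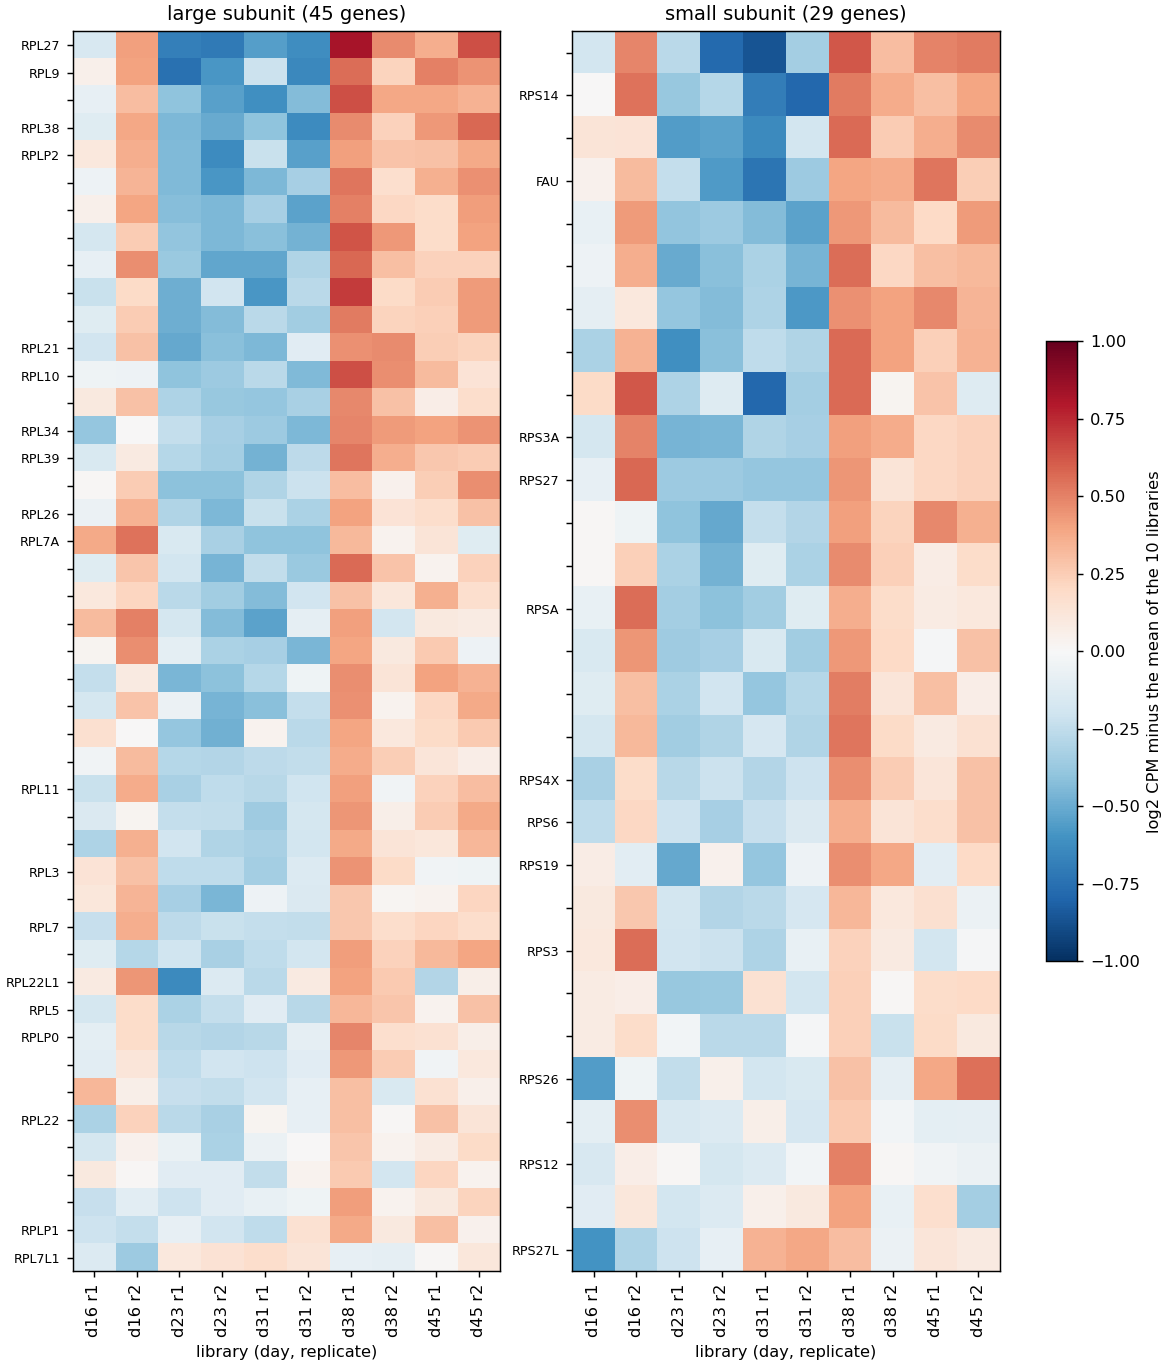
Level of 74 of the 76 members with a mean of at least 20 CPM (genes not reported here are left out) in each of the 10 libraries (columns, day and replicate), as log2 CPM minus the gene's mean over the libraries, large subunit left and small subunit right. Only genes named in the text are labelled, and rows are ordered by their level at days 23 and 31, where most genes are blue; RPL7L1, at the bottom left, lies above its mean on both days, and RPS27L, at the bottom right, does so on day 31.

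From day 38 to day 45 edgeR called 0 of 83 higher and 1 lower, where 4.85% of all genes were called higher and 6.35% lower, and at an unadjusted p below 0.05 there were 1 higher and 8 lower. DESeq2 called 0 higher and 2 lower. The median log2 fold change was −0.06, and its sign was not stable. It was 0.06 without replicate 1 of day 38, with 50 of 83 positive, −0.19 without replicate 2, with 71 negative, and 0.002 with upper-quartile factors. The gene called was *RPL3*, a large subunit protein near the peptidyl transferase centre, at chromosome 22, 39312882 to 39320389 on the minus strand. It went from 841 and 702 CPM to 602 and 597 CPM, a change of −0.37 log2 units (edgeR adjusted p = 0.0391, standard error 0.12). The call was lost with library size or upper-quartile factors, with a 5 CPM filter, and without either library of day 23 or 45 or replicate 1 of day 38.

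Day 45 against day 16 compares the ends of the series. edgeR called 9 of 83 members higher and 2 lower, where 12.9% of all genes were called higher and 11.7% lower, and the median of the members was 0.12. With library size alone 5 were higher and 5 lower, with a median of 0.03. The median was −0.04 without replicate 1 of day 16 and 0.32 without replicate 2, so its sign rested on 1 library. The lowest daily mean fell on day 23 in 51 members and on day 31 in 24, against 20.2 and 16.1% of all genes. The highest fell on day 38 in 46 members and on day 45 in 23, against 18.1 and 26.3%.

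*RPS26*, a small subunit protein at the mRNA exit channel, had no low point at day 23: it stood at 42.2 and 60.5 CPM on day 16, 52.4 and 64.4 on day 23, 54.9 and 56.2 on day 31, 76.3 and 58.7 on day 38, and 81.3 and 91.2 on day 45. Its change over the series was 0.75 (standard error 0.20, edgeR adjusted p = 0.0046), and the libraries of days 16 and 45 did not overlap. *RPL34*, of the large subunit, went from 69.2 and 90.9 CPM on day 16 to 120 and 124 CPM on day 45, by 0.60 log2 units (edgeR adjusted p = 0.00504).

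*RPL7A* and *RPS3* were the 2 members called lower at day 45 than at day 16. *RPL7A*, a large subunit gene whose introns hold small nucleolar RNAs, went from 530 and 596 CPM on day 16 to 309 and 309 on day 31 and 446 and 375 on day 45, which left it lower by −0.46 (standard error 0.13, edgeR adjusted p = 0.00675). *RPS3*, of the small subunit at the mRNA entry channel, went from 285 and 392 CPM on day 16 to 232 and 228 on day 23 and 233 and 263 on day 45, with −0.45 log2 units (edgeR adjusted p = 0.0158, standard error 0.14). The counts for the ends of the series depended on the day 16 libraries: 3 members were higher and 6 lower without replicate 1, and 26 higher and 0 lower without replicate 2; without either library of day 45 they were 5 and 1. *RPL7A* and *RPS3* kept a negative value without either library, but their calls were lost without replicate 2 and without 1 of the day 45 libraries.

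The stalk of the large subunit, which recruits the translation factors, is built from RPLP0, RPLP1 and RPLP2. *RPLP0*, its anchor, stood at 414 and 504 CPM on day 16, 367 and 362 on day 23, 365 and 417 on day 31, 623 and 498 on day 38, and 492 and 461 on day 45. It rose by 0.52 from day 31 to 38 (standard error 0.13, edgeR adjusted p = 0.00379), while its −0.33 from day 16 to 23 missed the threshold (edgeR adjusted p = 0.0954). *RPLP1* had no low point at day 23: its values were 189 and 185 CPM on day 16, 206 and 190 on day 23, 183 and 242 on day 31, 284 and 234 on day 38, and 269 and 224 on day 45. It was called only from day 16 to 45, by 0.40 (edgeR adjusted p = 0.0414, lost with library size, upper-quartile factors or the 4 libraries alone, and without either day 16 or day 23 library or replicate 1 of day 45). *RPLP2* fell at day 23, as given above, and rose by 0.72 to day 38 (edgeR adjusted p = 0.000425). The 3 stalk genes thus had 1 call at the first step and 2 at the return, and a difference between them was not tested. At the first step 5.33% of all genes and 49.4% of the members were lower. At the return 8.80% and 67.5% were higher.

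*RPL5* and *RPL11* encode the proteins that bind 5S rRNA and, outside the ribosome, MDM2. *RPL5* stood at 523 and 670 CPM on day 16, 474 and 500 on day 23, 543 and 487 on day 31, 740 and 712 on day 38, and 603 and 721 on day 45. *RPL11* stood at 280 and 423 CPM on day 16, 262 and 275 on day 23, 270 and 285 on day 31, 434 and 320 on day 38, and 383 and 406 on day 45. Both rose from day 31 to 38, by 0.50 (edgeR adjusted p = 0.00448) and 0.44 (edgeR adjusted p = 0.0396), and neither was called from day 16 to 23 (edgeR adjusted p = 0.141 and 0.0939). Both calls were lost with library size alone and without replicate 2 of day 31, and that of *RPL11* also without replicate 1 of day 38, where its value was 0.207.

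Among small subunit genes with known roles beyond the core, *RPS6*, whose protein is phosphorylated by S6 kinase, stood at 542 and 749 CPM on day 16, 561 and 514 on day 23, 551 and 586 on day 31, 834 and 708 on day 38, and 731 and 794 on day 45. It rose by 0.44 from day 31 to 38 (standard error 0.13, edgeR adjusted p = 0.0152), and the first step, −0.26, missed the threshold with overlapping libraries (edgeR adjusted p = 0.211). *RPSA*, also known as the laminin receptor, went from 223 and 345 CPM on day 16 to 185 and 177 on day 23, by −0.65 (edgeR adjusted p = 0.00313), and from 184 and 215 on day 31 to 302 and 267 on day 38, by 0.51 (edgeR adjusted p = 0.0169). *FAU*, which encodes RPS30 fused to a ubiquitin-like protein, went from 86.0 and 104 CPM to 70.8 and 56.6 at the first step, by −0.58 (edgeR adjusted p = 0.0286), and from 50.4 and 65.0 to 110 and 108 CPM on day 38, by 0.92 (edgeR adjusted p = 0.000236). *RPS19*, the gene most often mutated in Diamond-Blackfan anaemia, was called only at the return to day 38, by 0.64 (edgeR adjusted p = 0.00542). *RPS4X*, the X-linked RPS4 gene, rose there by 0.61 (edgeR adjusted p = 0.000741) and had −0.20 at the first step (edgeR adjusted p = 0.378). The calls of *RPS6*, *RPSA* and *RPS19* at day 38 were lost with library size alone and without replicate 1 of day 31 or of day 38.

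Symbols ending in L or L1 mark diverged copies of ribosomal protein genes. The 5 tested copies within the naming rule were not called in any of the 5 comparisons by edgeR (5 of 25 changes had an unadjusted p below 0.05) nor in the 9 changes fitted with DESeq2. *RPL36AL*, a copy outside the rule, was called and is given below. Of all tested genes, edgeR called 10.9, 2.25, 15, 11.2 and 24.6% in these comparisons, the last being day 45 against day 16. *RPS27L*, known as a p53 target, stood at 23.7 and 28.9 CPM on day 16, 31.03 and 33.95 on day 23, 45.5 and 47.0 on day 31, 44.4 and 34.5 on day 38, and 39.1 and 38.1 on day 45. Both libraries of each later day lay above both of day 16, but none of its changes was called. They were 0.30 to day 23 (standard error 0.24, edgeR adjusted p = 0.482), 0.51 on to day 31 (standard error 0.23, edgeR adjusted p = 0.39) and −0.23 on to day 38 (standard error 0.23, edgeR adjusted p = 0.593). From day 16 to 45 the change was 0.55 (standard error 0.24, unadjusted p = 0.0271, edgeR adjusted p = 0.093). *RPS27* itself stood at 276 and 436 CPM on day 16, 228 and 228 on day 23, 224 and 223 on day 31, 397 and 320 on day 38, and 338 and 343 on day 45. It was called at both steps, by −0.64 (standard error 0.15, edgeR adjusted p = 0.00318) and 0.68 (standard error 0.15, edgeR adjusted p = 0.00113). The difference between the copy and its parent was not tested.

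*RPL7L1*, which works in the assembly of the large subunit, stood at 102 and 86.7 CPM on day 16, 120 and 123 on day 23, 126 and 122 on day 31, 105 and 105 on day 38, and 113 and 121 on day 45. Its changes had the opposite sign of those of *RPL7* at both steps. They were 0.37 to day 23 (standard error 0.15, edgeR adjusted p = 0.112) and −0.24 to day 38 (standard error 0.15, edgeR adjusted p = 0.325), against −0.34 (edgeR adjusted p = 0.121) and 0.47 (edgeR adjusted p = 0.0176) for *RPL7*. *RPL22L1*, at 17.7 to 37.6 CPM over the libraries, had −0.64 to day 23 (standard error 0.27, edgeR adjusted p = 0.14) and 0.41 to day 38 (standard error 0.27, edgeR adjusted p = 0.363), and its parent *RPL22*, at 97.9 to 151 CPM, was not called either. *RPL26L1* lay between 11.6 and 20.9 CPM and *RPL39L* between 1.02 and 6.09 CPM. Of their parents, *RPL26* was called at both steps, with −0.53 and 0.54 (edgeR adjusted p = 0.00644 and 0.00344). *RPL39* had −0.28 at the first step, which was not called (edgeR adjusted p = 0.219), and rose by 0.81 at the return (edgeR adjusted p = 5.1e-05). *RPL10*, which joins the ribosome last and is needed for subunit joining, had −0.33 at the first step (edgeR adjusted p = 0.0726) and rose by 0.91 on day 38 (edgeR adjusted p = 6.22e-07).

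**Figure D3:**
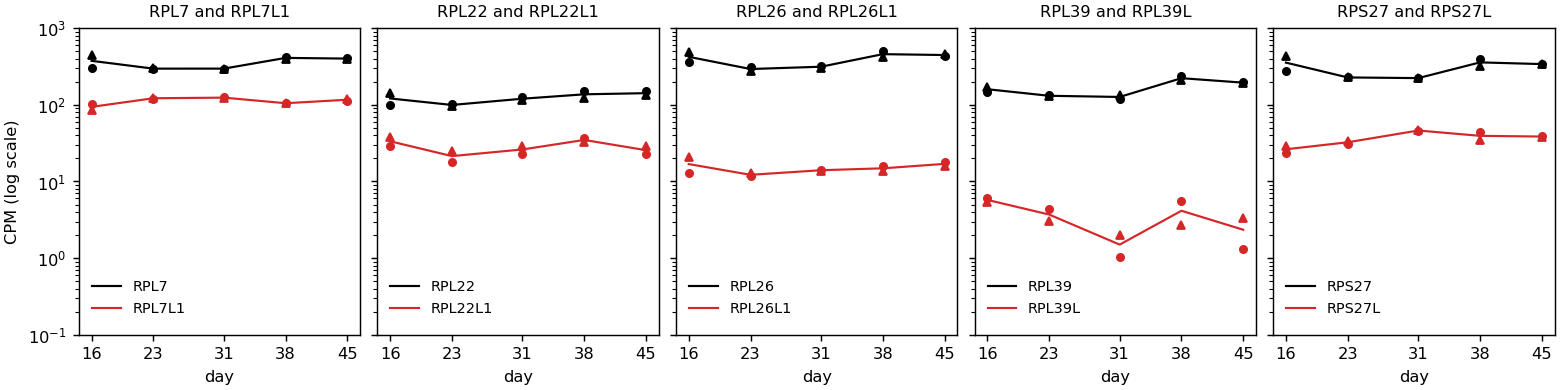
CPM on a log scale (y axis) by day (x axis) for 5 ribosomal protein genes (black) and their L or L1 copies (red). Circles are replicate 1, triangles replicate 2 and lines the mean of 2 libraries. RPS27L went from 23.7 and 28.9 CPM on day 16 to 45.5 and 47.0 on day 31, while RPS27 went from 276 and 436 to 224 and 223.

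Most of these proteins are present once in each ribosome, but the counts of their genes differed widely. The mean over the 10 libraries ran from 1.17 to 711 CPM, with a median of 227, and 68 of 83 tested members were at 100 CPM or more. Per kilobase of the union of a gene's exons, the highest levels were those of *RPS12* (333 CPM per kb), *RPS27* (293), *RPS3A* (282), *RPS6* (244) and *RPS4X* (237). The order at the top depended on the length used: with the MANE Select transcript *RPS12* ranked 22 and *RPS6* 12, while *RPS27* and *RPS3A* stayed at rank 2 and 3. *RPS12* stood at 188 and 221 CPM on day 16, 212 and 187 on day 23, 191 and 206 on day 31, 299 and 213 on day 38, and 205 and 202 on day 45. It was not called in any comparison, with 0.36 from day 31 to 38 (edgeR adjusted p = 0.093), and on day 38 both libraries lay above those of day 31.

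*RPS18*, *RPL17*, *RPS10* and *RPL36A*, core proteins without an L ending, were among the members with the lowest level by every length used, at 0.359 to 3.69 CPM per kb of exon union. *RPS10* had 17, 7, 12, 0, 17, 14, 2, 13, 6 and 13 counts from day 16 to day 45, and *RPL36A* had 21, 17, 9, 0, 7, 29, 4, 1, 22 and 6. *RPS18* had 18 to 59 counts in 9 libraries and 230 in replicate 2 of day 31. edgeR called none of the 4 in any comparison, with 2 of 20 changes at an unadjusted p below 0.05. It called 2.25 to 24.6% of all tested genes, depending on the comparison. Repetition and overlap are given beside these counts. Of the 50-base stretches of the MANE Select transcript, 94.6% recur exactly elsewhere in GRCh38 for *RPS10*, 88.0% for *RPL17*, 75.2% for *RPS18* and 49.2% for *RPL36A*, where the median over 85 members was 30.9%. For *RPS18*, 54.4% of the stretches recur on alternate or unplaced contigs. *RPL17*, *RPS10* and *RPL36A*, but not *RPS18*, are the 3 members whose symbol also opens a read-through gene of the files (RPL17-C18orf32, RPS10-NUDT3 and RPL36A-HNRNPH2), each with 0 counts over the 10 libraries. Of other members with many repeated stretches, *RPL21*, at 100%, *RPS3A*, at 98.2%, and *RPL39*, at 93.8%, had means of 161, 644 and 167 CPM. How multiply mapped reads and overlapping genes were counted is not given in the sources used here, and the part of either in these low counts was not tested.

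**Figure D4:**
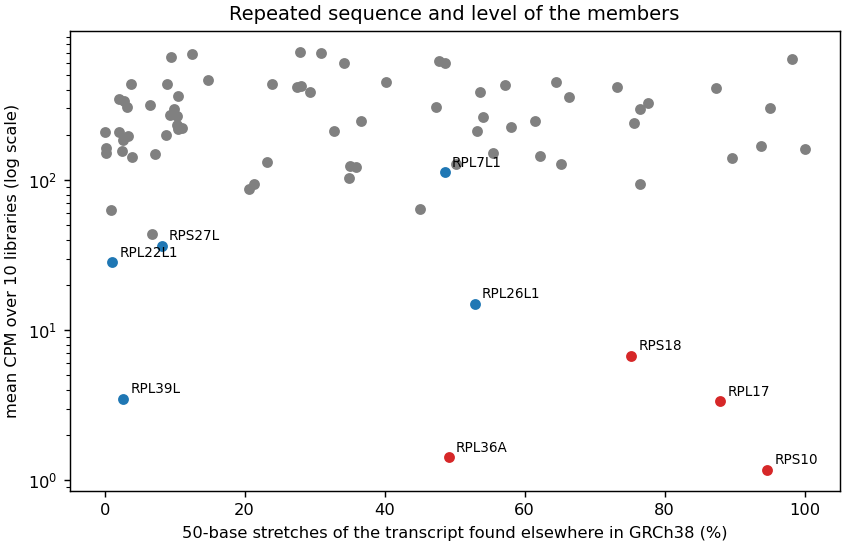
Mean CPM over 10 libraries (log scale, y axis) against the percent of 50-base stretches of the transcript found elsewhere in GRCh38 (x axis), 1 point for each of 80 of the 83 tested members (genes not reported here are left out). Red marks 4 core genes with a low level per length, at 1.17 to 6.77 CPM, blue the L and L1 copies and grey the other members.

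Reads of these genes can be shared with their many pseudogenes, so the course was also read in the members least open to this. Of the 24 tested members with under 10% repeated stretches, 15 fell from day 16 to 23, where 5.33% of all tested genes fell, and 15 rose from day 31 to 38, where 8.80% rose. Their medians were −0.58 and 0.64. *RPL38*, with 0% repeated, stood at 184 and 261 CPM on day 16, 146 and 141 on day 23, 151 and 129 on day 31, 278 and 235 on day 38, and 270 and 298 on day 45. It fell by 0.63 log2 units at the first step (edgeR adjusted p = 0.00378) and rose by 0.87 at the return (edgeR adjusted p = 4.76e-05). The 31 ribosomal protein pseudogenes listed in the files held 0.0181 to 0.0253% of the counts of a library. Members with a start tract and members without one had medians of the same sign. At the first step 25 of 48 and 8 of 19 fell, with medians of −0.53 and −0.36, against the 5.33% of all genes. At the return 34 of 48 and 12 of 19 rose, both with a median of 0.56, against the 8.80%.

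Short transcripts outside the family had medians of the same sign and smaller size. Among genes outside the family with a mean of at least 5 CPM and a transcript of up to 1000 bases, the median was −0.18 from day 16 to 23 and 0.37 from day 31 to 38 (444 genes), against −0.52 and 0.58 for the 11 members in that class that passed the same filter. In genes of more than 1000 and up to 2000 bases the medians were 0.02 and 0.11 (1342 genes), against −0.47 and 0.65 for 29 members. In genes of more than 2000 and up to 4000 bases they were 0.02 and 0.03 (4340 genes), against −0.47 and 0.57 for 29 members. Above 4000 bases they were 0.05 and −0.01 (6547 genes), and the 9 members there had the smallest medians of the family, −0.17 and 0.18. The part of transcript length in the course of the members was not tested. The 2286 genes outside the family at 100 CPM or more had medians of 0.09 and 0.03 at these steps. Of these, 16.9% were called higher and 11.5% lower from day 16 to 23, and 21.2% and 16% from day 31 to 38. From day 16 to 45 the shares were 28.1% and 23.4%. Among the 68 members at that level, 38 fell at the first step and 52 rose at the return. Between the ends of the series 7 were higher and 2 lower.

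Other ribosome components and other genes with TOP mRNAs were read beside the members. *RACK1*, a scaffold on the small subunit, is a ribosome component outside the naming rule. It stood at 449 and 486 CPM on day 31 and 763 and 598 CPM on day 38, a rise of 0.54 (edgeR adjusted p = 0.00253). *RPL36AL*, a near copy of *RPL36A*, instead rose over the whole series from 43.9 and 50.6 CPM on day 16 to 83.0 and 83.0 on day 45, by 0.81 (edgeR adjusted p = 0.000806). Of 16 other genes known for TOP mRNAs, 5 fell from day 16 to 23 (31.2%, against 5.33% of all genes), with a list median of −0.35. At the return 7 rose (43.8%, against 8.80%), with a median of 0.31 that became 0.09 with library size alone, where 4 were called. Between the ends of the series, day 16 and day 45, 1 was higher (6.25%, against 12.9%) and 3 lower (18.8%, against 11.7%), with a median of −0.03, or −0.13 with library size. They include *EEF1A1*, the elongation factor, with 3452 and 4656 CPM on day 16, 3294 and 3049 on day 23, 3186 and 3308 on day 31, and 5248 and 4687 on day 38, which changed by −0.35 and 0.61 (edgeR adjusted p = 0.0278 and 7.18e-05). *EEF2*, the translocation factor, was not called at either step, with 0.20 and −0.10 (edgeR adjusted p = 0.357 and 0.672). *NAP1L1*, a histone chaperone, fell by 0.90 log2 units at the first step, from 940 and 1366 CPM to 629 and 607 (edgeR adjusted p = 4.57e-06). *GAS5*, a host of small nucleolar RNAs with a TOP tract, had −0.72 and 0.78 (edgeR adjusted p = 0.0215 and 0.00816).

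**Figure D5:**
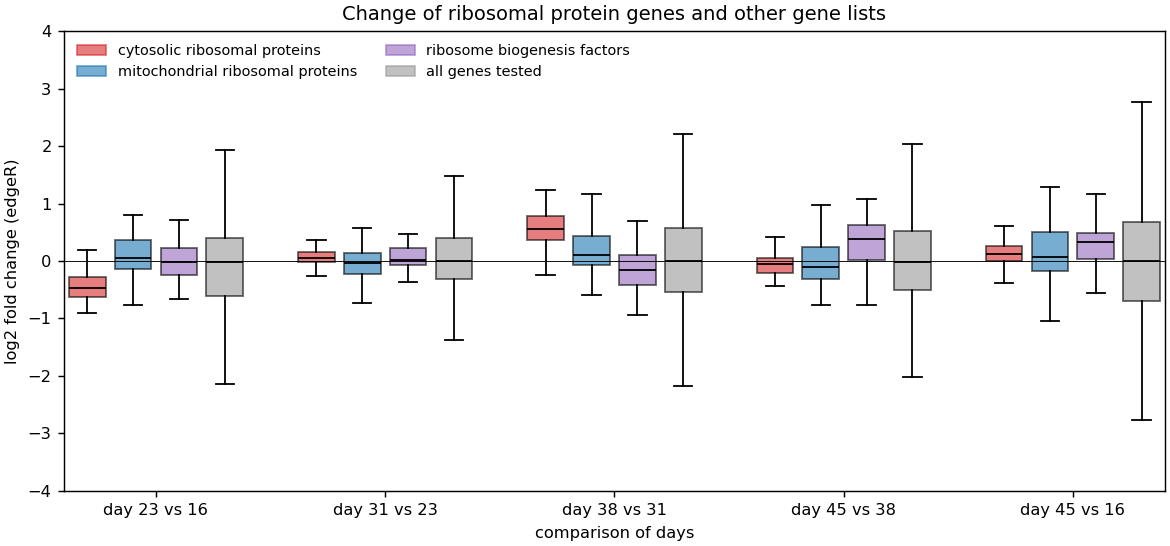
Log2 fold change (y axis) in 5 comparisons of days (x axis) for 83 cytosolic ribosomal protein genes, 76 mitochondrial ribosomal protein genes, 50 ribosome biogenesis factors and all 21014 genes tested. Boxes span the quartiles, black lines are medians and whiskers reach 1.5 times the box height or the last gene within it, with points beyond left out; the cytosolic set has medians of −0.47 and 0.56 for day 23 against 16 and day 38 against 31.

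The mitochondrial ribosome makes the proteins encoded in mitochondrial DNA. Of 76 tested mitochondrial ribosomal protein genes, 0 were called from day 16 to 23 by edgeR or DESeq2 (6 at an unadjusted p below 0.05), with a median of 0.06, where 5.60% of all genes were higher and 5.33% lower. From day 31 to 38, 2 were higher (2.63%, against 8.80%) and 1 lower (1.32%, against 6.23%), with a median of 0.11 that became −0.11 with library size alone. That scaling gave 7 calls at this step, counting both directions. DESeq2 called 4 there, and 14 had an unadjusted p below 0.05 in edgeR. The 2 that rose were *MRPS6* (1.17, edgeR adjusted p = 0.000413) and *MRPL17* (1.11, edgeR adjusted p = 0.00252).

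Ribosome biogenesis factors build the subunits in the nucleolus. From day 16 to 23, 3 of 50 fell (6%, against 5.33% of all genes) and 0 rose, with a median of −0.01, or 0.04 with library size alone. From day 31 to 38, 1 rose (2%, against 8.80%) and 3 fell (6%, against 6.23%), with a median of −0.16, or −0.38 with library size. Library size alone gave 12 calls among the 50, counting both directions, so this count depended on the scaling. From day 38 to 45, 11 rose (22.0%, against 4.85%) and 0 fell, with a median of 0.38. *NOP2*, an rRNA methyltransferase, stood at 14.6 and 19.7 CPM on day 38 and 93.8 and 83.4 on day 45. It rose by 2.37 (standard error 0.29, edgeR adjusted p = 2.03e-07). *NOP56*, of the box C/D small nucleolar particle, went from 33.8 and 27.7 to 60.0 and 66.6 CPM. It rose by 1.04 (edgeR adjusted p = 0.000863). *NCL*, nucleolin, rose there by 0.40 (edgeR adjusted p = 0.0225). *NMD3*, the export adaptor of the large subunit, is the gene of this list that rose from day 31 to 38 (0.50, edgeR adjusted p = 0.0367) after a fall at the first step (−0.65, edgeR adjusted p = 0.00752). Of 13 tested RNA polymerase I genes, edgeR and DESeq2 called 0 from day 16 to 23 and from day 31 to 38, with 1 and 3 at an unadjusted p below 0.05. From day 31 to 38, library size alone gave 2 calls and took the median from −0.228 to −0.455. *RRN3*, the factor that recruits the polymerase, rose from day 38 to 45 (0.64, edgeR adjusted p = 0.0184).

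Of 40 tested translation initiation factors, 3 rose and 3 fell at the first step (7.5% each, against 5.60% and 5.33% of all genes), with a median of −0.09. At the return 8 rose (20%, against 8.80%) and 3 fell (7.5%, against 6.23%), with a median of 0.22 that became 0.004 with library size alone. Of the 2286 genes outside the ribosomal protein family at 100 CPM or more, 21.2% rose and 16% fell there with TMM scaling. Library size alone gave 7 calls among the initiation factors, counting both directions. Of 15 hosts of small nucleolar RNAs, 2 fell (13.3%) and 0 rose at the first step, with a median of −0.57, and 4 rose (26.7%) and 1 fell (6.67%) at the return, with a median of 0.42 that became 0.20 with library size alone.

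Regulators that are known to act on these genes or on mTOR signalling were read from the growth signalling list of 29 genes. Of the 29, 3 rose and 2 fell from day 16 to 23 (10.3% and 6.9%, against 5.60% and 5.33% of all genes). At the return 5 rose and 2 fell (17.2% and 6.9%, against 8.80% and 6.23%). *MYC*, an activator of ribosomal protein genes, stood at 6.34 and 6.65 CPM on day 16, 10.4 and 8.23 on day 23, 26.5 and 21.8 on day 31, 16.3 and 13.6 on day 38, and 43.1 and 33.0 on day 45. It rose from day 23 to 31 (1.37, edgeR adjusted p = 0.0148) and from day 38 to 45 (1.34, edgeR adjusted p = 0.00382). The part of *MYC* in the course of the ribosomal protein genes was not tested. *DDIT4*, an inhibitor of mTOR complex 1 that glucocorticoids induce, stood at 39.8 and 21.2 CPM on day 16, 7.65 and 5.72 on day 23, 9.62 and 7.80 on day 31, 113 and 93.3 on day 38, and 25.4 and 12.8 on day 45. It changed by −2.19 at the first step and 3.56 at the return (edgeR adjusted p = 7.61e-06 and 1.66e-10). The part of *DDIT4* or of dexamethasone in the course of the ribosomal protein genes was not tested.

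Markers of other cells and of proliferation also moved between these days. The summed level of 5 fibroblast genes was 588 and 613 CPM on day 16 and 692 and 672 on day 23, a step at which 2 rose and 2 fell, while 5.60% of all genes rose and 5.33% fell. It was 622 and 692 CPM on day 31 and 2307 and 2374 on day 38, where 2 of the 5 rose and 1 fell, while 8.80% of all genes rose and 6.23% fell. *COL1A2*, the most abundant, rose by 2.67 there (edgeR adjusted p = 2.63e-16), and none was at 0 in any library. The 5 cardiac and muscle genes summed to 31.8 and 28.5 CPM on day 31 and 242 and 225 on day 38, with 4 of 5 higher, *MYH6* the most abundant and none at 0. The 5 airway and goblet genes summed to 11.98 and 27.2 CPM and then 71.0 and 54.0 CPM, with 2 of 5 higher, *MUC5B* the most abundant and up to 3 of the 5 at 0 in a library of day 16. The 3 tested blood and endothelial genes summed to at most 8.50 CPM in any library and had no call by edgeR or DESeq2, with at most 2 at an unadjusted p below 0.05 in a comparison. Of the 20 proliferation genes, 5 were lower (25%, against 5.33% of all genes) and 0 higher from day 16 to 23, with a median of −0.48. From day 31 to 38, 2 were higher (10%, against 8.80%) and 5 lower (25%, against 6.23%), with a median of 0.22 that became −0.002 with library size alone. From day 16 to 45, 9 were lower (45%, against 11.7%) and 0 higher, with a median of −1.02. *MKI67*, the most abundant of them, was lower at day 45, at 81.4 and 123 CPM against 239 and 194 on day 16 (−1.08, edgeR adjusted p = 2.46e-06). Of 12 immediate early and stress genes, which cells switch on when handled or damaged, *JUN* rose (8.33%) and *ATF3*, *FOSB* and *GADD45B* fell (25%) from day 16 to 23. Both edgeR and DESeq2 called 0 of the 12 from day 31 to 38, with 4 at an unadjusted p below 0.05. Library size alone gave 3 calls there and took the median from 0.05 to −0.174. From day 38 to 45, 5 of the 12 rose and 3 fell (41.7% and 25%, against 4.85% and 6.35% of all genes). The summed level of the 12 lay between 5086 and 6821 CPM in the 8 libraries up to day 38 and was 3962 and 3710 CPM on day 45, with *EGR1* the most abundant and none at 0. The part of a changed cell makeup, of cell division or of such a response in the course of the ribosomal protein genes was not tested.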

How the data were processed

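The members and lists were chosen with earlier results of these data known. Bulk RNA-seq was done on sorted NKX2-1GFP+ cells, 2 libraries per day, from total RNA with a low-input kit. Trimmomatic, HISAT2 and HTSeq, with the GRCh38.p13 annotation, took the authors from reads to the raw counts per gene that they deposited; strand setting and treatment of multiply mapped reads are not given in the sources used here. The study's methods call the libraries of a day biological replicates that each pool several wells, and do not say whether these came from separate differentiations. The p-values measure the spread between these libraries. Replicate counts differed by more than sampling noise (chi-square per degree of freedom 8.39 to 13.7), and each library counted as 1 replicate. The floor of a library was 3 counts, 0.290 to 0.414 CPM.

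One mean per day was fitted over the 10 libraries in R 4.3.3 with edgeR 4.0.16 (TMM factors 0.896 to 1.07, quasi-likelihood test, with limma 3.58.1). Standard errors are the log2 fold change over the square root of F and are approximate. Alternatives were DESeq2 1.42.0, other scaling and filters, a fit to 4 libraries, a block for the replicate number, other lengths and denominators, and leaving out each library; 2 were added after seeing the data (members with under 10% repeats, MANE length). The fit was tested on simulated counts, where most of the changes put in were not called. A gene that was not called may therefore still have changed. Named genes were, per comparison, the 3 largest changes in each direction among called members with a mean of at least 5 CPM, the L and L1 copies with their parents, the stalk, RPL5, RPL11, RPS6, RPSA, FAU, RPS4X, RPS19, the 5 highest and 5 lowest core members per length, and up to 2 called genes per other list; RN7SK, RPL38, RPL21, EEF1A1, EEF2, NCL, PAX8, JUN and ATF3 are outside this rule and were chosen after their values were seen. Some genes that this rule names are not reported here. Gene positions came from GENCODE 44, where 25755 of 28265 symbols and all 87 members matched, and start windows from RefSeq promoter sequences (GRCh38.p14). Repetition was counted as exact 50-base matches in hg38 with its alternate contigs. Every other line of the files is blank.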

Additional observations from a re-analysis of the deposited data

How the results depend on the processing

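Over 10 other settings and 10 fits without 1 library, none of the 200 called gene results changed its direction, and 60 of 1998 values under other settings and 221 of 2000 without 1 library lost their call. The median of the ribosomal protein genes kept its sign from day 16 to 23 and from day 31 to 38 under every setting run. From day 31 to 38, library size alone gave 36 higher, 1 lower and a median of 0.344, and library size with RN7SK left out a median of 0.406; the cause was not tested beyond the shift of all genes given above. From day 38 to 45, 0 members were lower with library size, with RN7SK left out, with upper-quartile factors or at 5 CPM, and 2 with DESeq2. From day 16 to 45, library size gave 5 higher and 5 lower, with or without RN7SK, and the 4 libraries alone 4 higher and 1 lower, with fewer samples in the fit. Without a low-count filter 1 member was higher from day 23 to 31. The median of the proliferation genes from day 31 to 38, 0.22, became −0.002 with library size. Uncalled changes of RPS4X and RPS19 from day 16 to 23 ran from −0.414 to 0.075 and from −0.497 to 0.057 without 1 library, positive without day 16 replicate 2 and day 23 replicate 1.

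Without 1 library at a time, 13 to 51 members were lower and 0 to 1 higher from day 16 to 23 (medians −0.592 to −0.281), 0 to 1 higher from day 23 to 31 (0.005 to 0.085), 30 to 59 higher and 0 to 1 lower from day 31 to 38 (0.446 to 0.682), 0 to 3 lower from day 38 to 45 (−0.19 to 0.064), and 3 to 26 higher and 0 to 6 lower from day 16 to 45 (−0.04 to 0.315). The lowest counts came without day 23 replicate 2, day 38 replicate 1 and day 16 replicate 1. The calls over all genes were 1350 to 2383, 206 to 646, 1764 to 3614, 1166 to 2816 and 3969 to 5222 in the same order. Where a day was left with 1 library, that library was assumed to vary like the others. Differences between replicates 1 and 2 were hardly correlated between days (correlations of deviations −0.0766 to 0.0803). This cannot show whether libraries of the same replicate number shared a differentiation. With the number as a block, 45 members were lower from day 16 to 23 and 58 higher from day 31 to 38.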
